A study of Hormonema carpetanum with 4 samples.

Results

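The mutant ENF-5-29 of the fungus Hormonema carpetanum was set against the wild-type strain ATCC74360, both at day 14, across all functional groups of the genome. The level of each gene was the deposited number of TPM, the share of all transcripts corrected for transcript length, scaled to a fixed total per library. Of 10951 genes in the table, 9272 had 1 TPM or more in either library or in both, and these were compared. The study sequenced mycelium from the fermentation broth of both strains at the stationary phase, with 1 library for each group. The other groups hold the mutant at day 18, grown at 19 °C or 25 °C, and their values are given here only beside those of day 14, in that order. The series title attributes the mutant to mutagenesis aimed at enfumafungin production. The labels list neither its mutations nor the day 14 temperature. The sample titles, which were followed, say day 14 for both libraries, whereas the extraction protocol speaks of 18 days for both strains. ENF-5-29 is 1 strain, so a difference from the wild type can belong to this strain, to this culture or to this library, and these cannot be told apart.

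Hormonema carpetanum is a dark, yeast-like fungus that secretes enfumafungin, a triterpene glycoside that inhibits the enzyme making the beta-1,3-glucan of fungal cell walls. Triterpenes are built from acetyl-CoA through mevalonate and squalene, a route they share with ergosterol, the main sterol of fungal membranes. Acetyl-CoA comes from pyruvate, from citrate or from the breakdown of fatty acids and of some amino acids. It is also the starting point of lysine synthesis in fungi, which use the alpha-aminoadipate route, and of leucine synthesis.

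With 1 library on each side there was no replicate check and no test, and every difference below is a difference between these 2 libraries. A gene is called higher or lower in the mutant where TPM + 1 differed at least 2-fold. By this measure 3773 genes (40.7%) were higher and 1301 (14%) were lower, and 4198 lay within 2-fold. The median log2 ratio over all genes was 0.64, so a typical gene took a larger share of the mutant library. After rescaling by the median ratio, a shift of 0.65 on the log2 scale, 2480 genes (26.7%) were higher and 2187 (23.6%) were lower. The higher genes made up 74.4% of the calls in deposited values and 53.1% of them after rescaling. Group results are therefore given on both scales, the rescaled counts second. They are to be read against 40.7% higher and 14% lower in deposited values, and 26.7% and 23.6% after rescaling. Where the counts of a group lie near these shares, nothing particular to the group is read from them.

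The shift went with level. Among the 161 genes with a mean of 1000 TPM or more, 20.5% were higher and 41% lower, whereas among the 2594 genes between 10 and 30 TPM 44.8% were higher and 11.7% lower. The 20 highest genes held 23.47% of the wild-type library and 15.85% of the mutant library. The part of this difference in the counts of genes called was not tested. Fewer cells of a kind and less RNA per cell cannot be told apart in such bulk samples.

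**Figure D1:**
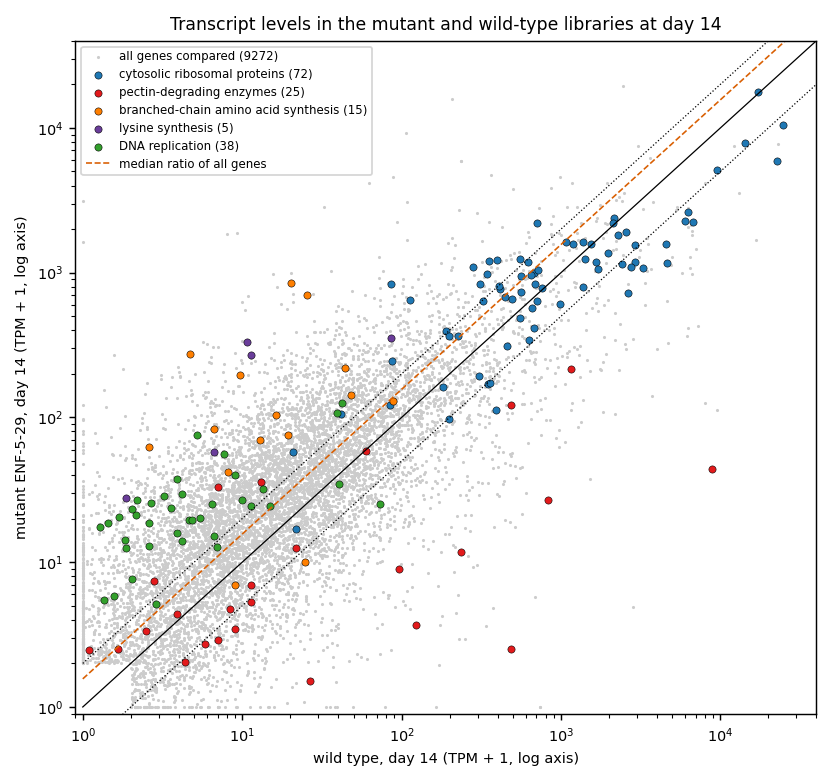
Levels of the 9272 compared genes in the wild-type library (horizontal axis) and the mutant library (vertical axis) at day 14, both as TPM + 1 on log axes. The solid line marks equal values, the dotted lines 2-fold differences and the dashed line the median ratio of all genes, and 5 functional lists are coloured. Lysine synthesis genes all lie above the 2-fold line, and the polygalacturonase at 8803 TPM in the wild type lies far below it.

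Genes were sorted into 78 functional lists by orthology number or by the name of their best protein match. Of the 77 lists with at least 5 compared members, 43 had a larger share of higher members than the 40.7% of all genes, and 38 did so after rescaling, against the share of all genes on that scale. The highest medians belonged to the synthesis of lysine and of branched-chain amino acids and to DNA replication. At the other end stood the pectin-degrading enzymes and the list of terpene cyclases and prenyltransferases, which also holds carotenoid genes.

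**Figure D2:**
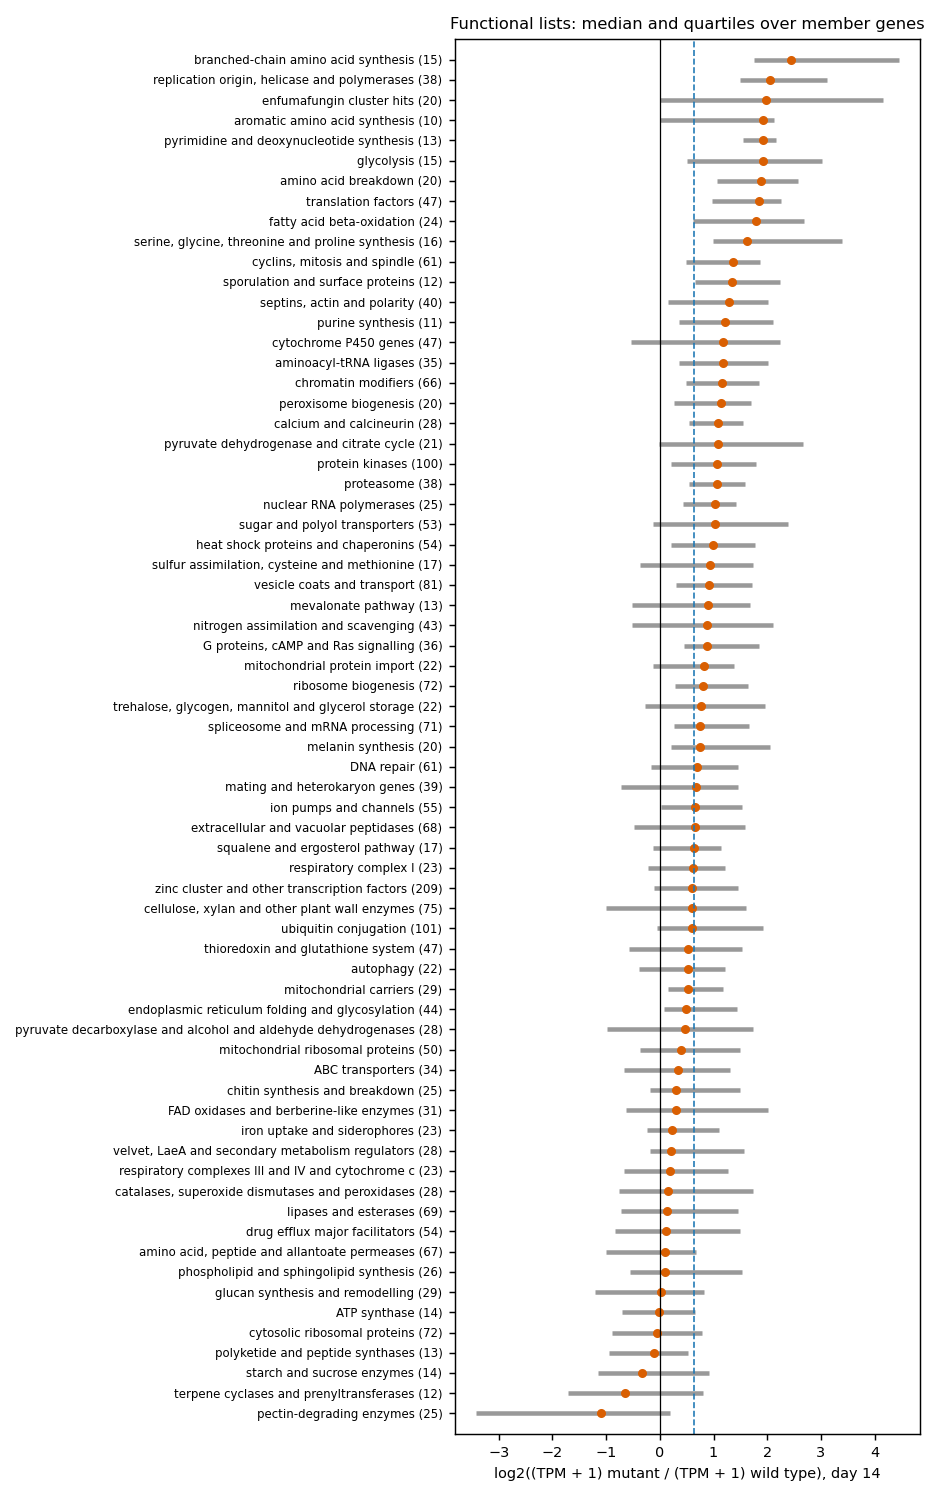
Median (points) and quartiles (bars) of the log2 ratio of mutant to wild type at day 14 over the members of each functional list with at least 10 compared genes, the number in brackets. The solid line marks 0 and the dashed line the median of all genes, 0.64. Branched-chain amino acid synthesis is highest with a median of 2.45, and pectin-degrading enzymes lowest with -1.10.

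Amino acid synthesis genes were higher in the mutant library along most routes. All 5 compared genes of the lysine route were higher on both scales, and they had a median log2 ratio of 3.88, and their summed level was 111 TPM in the wild type against 1034 TPM in the mutant. At day 18 this sum was 651 and 846 TPM. Homoisocitrate dehydrogenase (gene09531), which makes the alpha-ketoadipate of this route, was at 10.3 TPM in the wild type, 268 TPM in the mutant, and 150 and 116 TPM at day 18. Homoaconitase (gene08231), the enzyme before it, was at 0.88 and 26.8 TPM at day 14 and at 27.2 and 39.6 TPM at day 18. The wild type held the lowest value of the 4 libraries at both steps. The L-2-aminoadipate reductase (gene01353), which the later part of the route needs, was at 5.67 TPM in the wild type against 56.3 TPM in the mutant.

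The branched-chain amino acids are valine, leucine and isoleucine, which share most of their enzymes. Of 15 genes matched to it, 12 were higher and 1 lower, and 11 and 1 after rescaling. Acetolactate synthase, the shared first enzyme, has a catalytic and a regulatory subunit, and these differed. The catalytic subunit (gene08733) was at 8.65 TPM in the wild type against 194 TPM in the mutant, with 113 and 305 TPM at day 18. The small subunit (gene06799) was at 86.8 and 129 TPM, within 2-fold. Ketol-acid reductoisomerase (gene08883), the next enzyme, was at 19.1 TPM in the wild type, 848 TPM in the mutant, and 433 and 561 TPM at day 18. On the leucine branch the 3-isopropylmalate dehydratase (gene04412) was at 3.70 TPM in the wild type against 273 TPM in the mutant, a log2 ratio of 5.86. The 3-isopropylmalate dehydrogenase (gene06698), which follows it, was at 24.5 and 697 TPM. In both leucine enzymes the day 18 libraries lay between these values. The single lower gene was an aminotransferase (gene04007, 24.0 and 9.08 TPM) and a second gene with the same name (gene04316) was higher, at 15.3 and 103 TPM.

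Arginine synthesis had 7 of 9 genes higher and none lower, and 5 and none after rescaling. Argininosuccinate synthase (gene10842), which joins citrulline to aspartate, was at 26.9 TPM in the wild type against 707 TPM in the mutant, and at 134 and 233 TPM at day 18. Ornithine carbamoyltransferase (gene06798), the step before it, was at 39.1 and 53.02 TPM, within 2-fold. Within the group making serine, glycine, threonine and proline, 11 of 16 genes were higher and none lower, and 8 and none after rescaling. Threonine synthase (gene06963) was at 10.3 TPM in the wild type against 255 TPM in the mutant. The cytosolic serine hydroxymethyltransferase (gene01750), which feeds 1-carbon units to nucleotide synthesis, was at 8.89 and 250 TPM, with 95.1 and 390 TPM at day 18.

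The aromatic and histidine routes were split. In the aromatic route 6 of 10 genes were higher and none lower, and 6 and 1 after rescaling. Chorismate synthase (gene04493), which makes the last shared intermediate, was at 3.93 TPM in the wild type against 81.5 TPM in the mutant. The tryptophan branch after it included anthranilate synthase component 1 (gene05972) at 80.8 and 68.0 TPM and the multifunctional tryptophan protein (gene00006) at 44.6 and 32.0 TPM, both within 2-fold. Histidine synthesis had 3 of 7 genes higher and none lower, and 3 and 1 after rescaling.

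**Figure D3:**
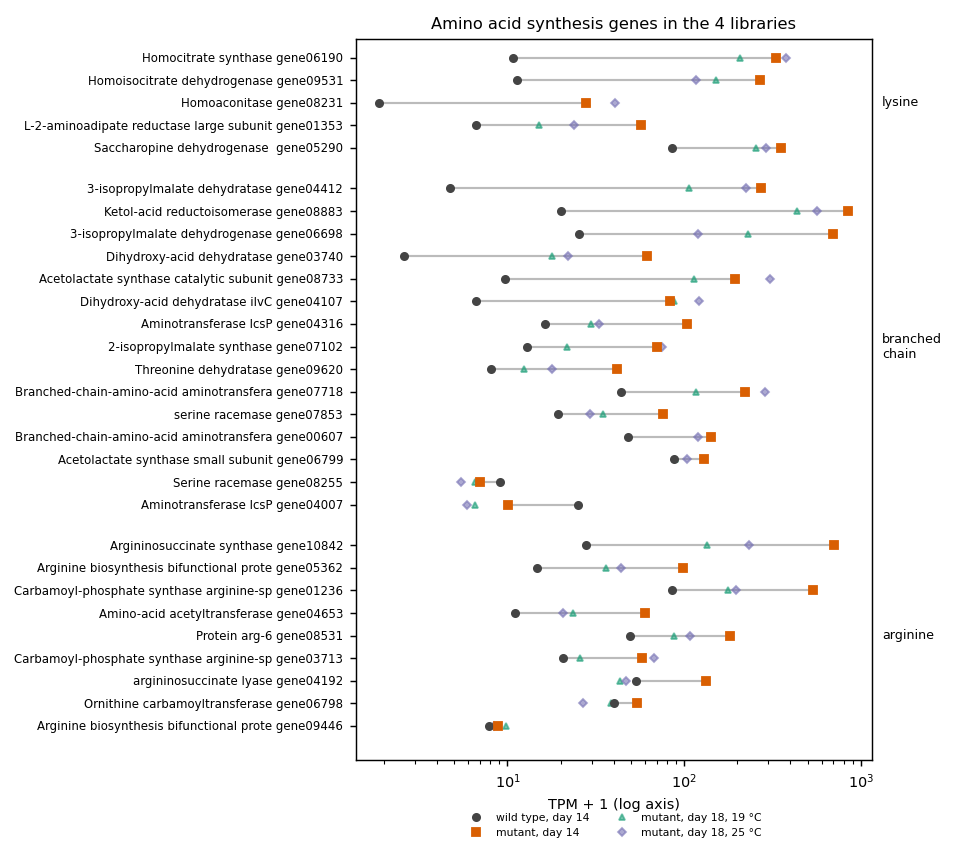
Levels of every compared gene of lysine, branched-chain and arginine synthesis in the 4 libraries, as TPM + 1 on a log axis, with the wild type as circles and the mutant at day 14 as squares. The grey line joins the 2 day 14 libraries. All 5 lysine genes and 12 of the 15 branched-chain genes lie at least 2-fold to the right in the mutant.

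Sulfur metabolism divided by enzyme. Of 17 genes of sulfate reduction and of cysteine and methionine synthesis, 8 were higher and none lower, but 6 were higher and 5 lower after rescaling. Homocysteine synthase (gene07510), which adds sulfide directly to a homoserine ester, was at 3.65 TPM in the wild type against 177 TPM in the mutant. Adenosylhomocysteinase (gene00640), which recovers homocysteine after methyl transfer, was at 106 and 680 TPM. The transsulfuration enzymes cystathionine beta-synthase (gene04664, 150 and 82.2 TPM) and cystathionine gamma-lyase (gene05135, 153 and 93.5 TPM) were within 2-fold in deposited values and lower after rescaling, with log2 ratios of -1.50 and -1.35.

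Nitrogen entry went with amino acid synthesis. NADP-dependent glutamate dehydrogenase (gene04489), which fixes ammonium into glutamate, was at 202 TPM in the wild type against 1043 TPM in the mutant, and at 631 and 726 TPM at day 18. Glutamine synthetase (gene08927) was at 96.1 and 506 TPM, and glutamate synthase (gene07398) at 1.69 and 47.7 TPM. All of these main routes of ammonium into amino acids were therefore higher in the mutant library. Over the whole list of nitrogen assimilation and scavenging, 20 of 43 genes were higher and 5 lower, and 16 and 11 after rescaling. Genes that release nitrogen from other sources included some at lower levels, among them an amidase (gene04000), at 54.5 and 26.1 TPM.

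Genes of amino acid breakdown were higher together with those of synthesis. Of 20, 15 were higher and none lower, and 12 and none after rescaling. Isovaleryl-CoA dehydrogenase (gene09112), an enzyme of leucine breakdown, was at 2.87 TPM in the wild type, 61.5 TPM in the mutant, and 23.5 and 15.5 TPM at day 18. The methylcrotonoyl-CoA carboxylase beta chain (gene09113), next on that path and next in gene number, was at 12.2 and 54.8 TPM. Arginase (gene00752), which opens arginine breakdown, was at 397 and 476 TPM, within 2-fold.

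Purine and pyrimidine synthesis was higher as well. Of 11 purine genes 7 were higher and none lower, and 4 and none after rescaling. In the pyrimidine and deoxynucleotide list 10 of 13 were higher and 2 lower, and 8 and 2 after rescaling. Dihydroorotase (gene03043) was at 3.12 TPM in the wild type against 28.9 TPM in the mutant, whereas orotate phosphoribosyltransferase (gene03291), a few steps on, was at 258 and 92.3 TPM. Both subunits of ribonucleotide reductase, which makes the building blocks of DNA, were higher, the large chain (gene03460) at 10.4 and 49.8 TPM and the small chain (gene05532) at 106 and 323 TPM.

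In central carbon metabolism, genes around pyruvate and phosphoenolpyruvate differed in both directions. Pyruvate decarboxylase (gene05481), the first enzyme of alcoholic fermentation, was among the 15 highest genes of the wild type at 6989 TPM, and was at 1451 TPM in the mutant and at 4008 and 2961 TPM at day 18. The alpha subunit of the pyruvate dehydrogenase E1 component (gene02715), which opens the respiratory route, was at 52.5 TPM in the wild type against 498 TPM in the mutant. Its partner, the beta subunit (gene06832), was at 345 and 310 TPM. The 2 subunits of this enzyme thus lay far apart in the wild type and within 2-fold of each other in the mutant. Phosphoenolpyruvate carboxykinase (gene09954), which starts gluconeogenesis, was at 6.07 TPM in the wild type, 305 TPM in the mutant, and 179 and 301 TPM at day 18. Isocitrate lyase (gene08880), the entry to the glyoxylate cycle, went the other way, at 84.1 and 13.7 TPM.

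Glycolysis was higher for most genes yet not in sum. Of 15 genes 10 were higher and 3 lower, and 9 and 3 after rescaling, while the summed level was 7992 TPM in the wild type against 7873 TPM in the mutant. Glyceraldehyde-3-phosphate dehydrogenase (gene08348) alone held 6243 TPM of that sum in the wild type against 2818 TPM in the mutant. Triosephosphate isomerase (gene10172) was at 99.6 and 718 TPM, and pyruvate kinase (gene07400) at 48.8 and 188 TPM. Of 21 genes of pyruvate dehydrogenase and the citrate cycle, 11 were higher and none lower, and 7 and 3 after rescaling. The flavoprotein subunit of succinate dehydrogenase (gene04922) was at 18.1 TPM in the wild type against 292 TPM in the mutant, whereas mitochondrial citrate synthase (gene07675) was at 624 and 465 TPM.

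The pentose phosphate pathway held 2 higher genes and 1 lower among 9, and 1 and 2 after rescaling. The lower gene was a transaldolase (gene05701), at 701 TPM in the wild type against 109 TPM in the mutant, next to a second transaldolase (gene03375) at 1024 and 1229 TPM. Among storage carbohydrates and glycerol, 10 of 22 genes were higher and 4 lower, and 7 and 5 after rescaling. Glycerol kinase (gene02801), which takes glycerol into metabolism, was at 0.84 TPM in the wild type against 102 TPM in the mutant at day 14, with 102 and 20.9 TPM at day 18. Acid trehalase (gene05239), which cleaves trehalose, was at 3.33 and 55.4 TPM.

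In lipid metabolism the breakdown of fatty acids was higher. Of 24 genes of beta-oxidation 16 were higher and 2 lower, and 14 and 2 after rescaling, and their summed level was 515 TPM in the wild type against 2486 TPM in the mutant. An acyl-CoA dehydrogenase (gene09334) was at 19.98 TPM in the wild type, 629 TPM in the mutant, and 217 and 178 TPM at day 18. Peroxisomal acyl-CoA oxidase (gene04648) was at 13.4 and 122 TPM. The import receptor for 1 class of peroxisomal enzymes, those with the second targeting signal (gene00850), was at 0.46 and 23.8 TPM. Of 20 peroxisome biogenesis genes 11 were higher and 1 lower, and 7 and 3 after rescaling.

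Both subunits of ATP-citrate lyase, which makes cytosolic acetyl-CoA from citrate, were higher. Subunit 1 (gene06942) was at 52.3 TPM in the wild type against 264 TPM in the mutant, and subunit 2 (gene06941) at 53.4 and 364 TPM. Acetyl-CoA carboxylase (gene03653), which commits acetyl-CoA to fatty acids, was at 79.8 and 116 TPM, within 2-fold. The fatty acid synthase subunits alpha (gene01373, 151 and 252 TPM) and beta (gene01374, 147 and 287 TPM) were also within 2-fold. Acyl-CoA desaturase (gene03493), which introduces double bonds into fatty acids, was lower, at 6589 TPM in the wild type, 1929 TPM in the mutant, and 2912 and 2993 TPM at day 18.

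The isoprenoid route had 5 of 13 mevalonate pathway genes (38.5%) higher and 1 lower, and 4 (30.8%) and 3 after rescaling. These shares were near the 40.7% and 26.7% of all genes. Of 17 genes from squalene to ergosterol 7 (41.2%) were higher and 1 lower, and 3 (17.6%) and 1 after rescaling. The lower gene (gene05078, annotated ERG3, a sterol C-5 desaturase) was at 4956 TPM in the wild type, 1278 TPM in the mutant, and 1082 and 1242 TPM at day 18. Squalene synthase (gene09579), which takes farnesyl diphosphate into triterpenes and sterols, was at 86.1 and 79.1 TPM. In the phospholipid and sphingolipid list 11 of 26 genes were higher and 2 lower, but 6 were higher and 10 lower after rescaling. The 2 lower genes were both hydroxylases that act on ceramides or their precursors. SUR2 (gene07083) was at 740 TPM in the wild type against 131 TPM in the mutant, with 155 and 157 TPM at day 18. The very long chain fatty acid hydroxylase (gene07061) was at 723 and 184 TPM, with 677 and 807 TPM at day 18, so its day 18 libraries stood near the wild type. Inositol-3-phosphate synthase (gene03555), which makes inositol and was singled out after its values were seen, was at 127 and 1111 TPM.

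In the machinery of protein synthesis, translation factors and ribosomal proteins went apart. Of 47 translation factor genes 35 were higher and 1 lower, and 25 and 4 after rescaling. An initiation factor 3 subunit (gene07608) was at 5.63 TPM in the wild type, 89.5 TPM in the mutant, and 61.6 and 165 TPM at day 18. The lower gene was elongation factor 2 (gene06319), which moves the ribosome along the message, at 600 TPM in the wild type against 247 TPM in the mutant, with 131 and 665 TPM at day 18. Aminoacyl-tRNA ligases, which charge transfer RNAs, had 19 of 35 genes higher and 1 lower, and 13 and 3 after rescaling. The lower ligase was the mitochondrial one for tryptophan (gene05409), at 136 and 28.1 TPM, whereas its cytoplasmic counterpart (gene09020), named after its values were seen, was at 12.01 and 59.9 TPM.

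Cytosolic ribosomal proteins were on balance lower than the rest of the genome. Of 72 genes 13 were higher and 16 lower, and 4 and 29 after rescaling, with a median log2 ratio of -0.06 against 0.64 for all genes. Their summed level was 173220 TPM in the wild type against 111169 TPM in the mutant, and 122449 and 132043 TPM at day 18. Levels and ratios ranged widely within the group. RPS30 (gene06825) was at 22503 TPM in the wild type against 5897 TPM in the mutant, and L29 (gene01841) at 24561 and 10448 TPM. By contrast RPS19 (gene03738) was at 84.7 TPM in the wild type against 831 TPM in the mutant, and RPS25 (gene06776) was at 17264 and 17600 TPM. The subunits of 1 ribosome thus did not move together in these libraries. Ribosome biogenesis genes had 29 of 72 (40.3%) higher and 4 lower, and 20 (27.8%) and 8 after rescaling, so the shares higher were near those of all genes.

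The respiratory complexes differed from each other. In complexes III and IV with cytochrome c, 7 of 23 genes were higher and 5 lower, and 1 and 8 after rescaling. The ATP synthase, which uses the proton gradient to make ATP, had 2 of 14 genes higher and 2 lower, and 1 and 6 after rescaling. Its subunit f (gene07013) was at 13024 TPM in the wild type against 3541 TPM in the mutant, whereas subunit d (gene08491) was at 144 and 727 TPM. Cytochrome c oxidase subunit 8 (gene07046) was at 6438 and 1071 TPM. Complex I had 6 of 23 genes higher and 2 lower, and 5 and 6 after rescaling, and its median log2 ratio of 0.61 was near the 0.64 of all genes. Within it a beta subcomplex subunit (gene05345) was at 2817 and 345 TPM, and a 19.3 kDa subunit (gene04333) at 2.63 and 190 TPM. Alternative oxidase (gene00570), which bypasses complexes III and IV, was level between the day 14 libraries at 60.4 and 63.0 TPM, and stood at 386 and 356 TPM at day 18.

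Many of the lower ribosomal and respiratory genes encode very short proteins, and a length effect was looked at by name lists. Among 44 genes of short proteins of the ribosome and respiratory chain, 5 were higher and 15 lower, and the median log2 ratio was -0.53. Among 88 other genes of these complexes 23 were higher and 10 lower, with a median of 0.44. Short proteins elsewhere had 13 of 38 genes higher and 7 lower, a median of 0.36. Genes of very long proteins had 35 of 65 higher and 4 lower, a median of 1.06. Transcript length itself is not in the table, and its part in the ribosomal, respiratory and replication results was not tested. A further measure of the libraries is a set of genes named after yeast ART2, which lies antisense to the ribosomal RNA genes in Saccharomyces cerevisiae. A pair of them (gene02272 and gene02275) shared the same values in every library, 234 TPM in the wild type, 5879 TPM in the mutant, and 6442 and 5170 TPM at day 18. Another (gene02270), named after its values were seen, was listed at 0 in the wild type and was at 1633 TPM in the mutant, and a neighbour named ART3 (gene02273) was at 738 TPM in the wild type and listed at 0 in the mutant. The part of ribosomal RNA carry-over in the scale of the 2 libraries was not tested.

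**Figure D4:**
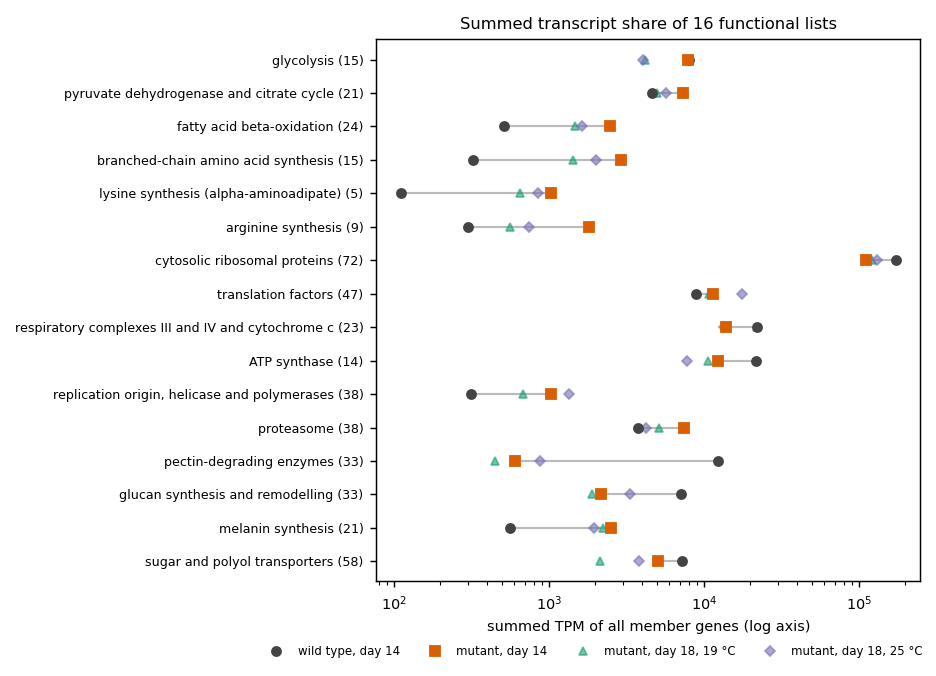
Summed TPM of all genes in each of 16 functional lists (number of genes in brackets) in the 4 libraries, on a log axis, with the grey line joining the 2 day 14 libraries. Pectin-degrading enzymes lie at 12374 TPM in the wild type against 607 TPM in the mutant, while lysine, branched-chain and arginine synthesis and beta-oxidation lie to the right in the mutant.

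Genes of DNA replication were higher in most cases, and other parts of the cell cycle less uniformly so. In the list of replication origin, helicase and polymerase genes 33 of 38 were higher and 1 lower, and 27 and 1 after rescaling, with a median log2 ratio of 2.06. Their levels were low, and their sum was 317 TPM in the wild type, 1034 TPM in the mutant, and 684 and 1361 TPM at day 18. Replication factor A protein 1 (gene00955), which coats single-stranded DNA, was at 4.19 TPM in the wild type against 74.95 TPM in the mutant. The lower gene was GINS subunit PSF3 (gene09101), at 71.7 and 24.1 TPM, although the GINS subunit psf1 (gene00767) was at 0.28 and 16.5 TPM. Cyclin, mitosis and spindle genes had 41 of 61 higher and 2 lower, and 24 and 5 after rescaling. Gamma-tubulin (gene00126), which seeds microtubules, was at 0.19 TPM in the wild type against 33.3 TPM in the mutant, with 12.02 and 20.97 TPM at day 18. The core histones had 4 of 8 genes higher and 1 lower, and 2 and 1 after rescaling. The list of DNA repair genes had 24 of 61 (39.3%) higher, near the 40.7% of all genes, and 2 (3.28%) lower against 14%. After rescaling 12 (19.7%) were higher and 12 lower, against 26.7% and 23.6% of all genes. The deposited pathway annotation, which groups genes otherwise and can place 1 gene in several pathways, had repair pathways higher more often. Nucleotide excision repair had 27 of 40 genes higher and 2 lower, and 17 and 4 after rescaling. Base excision repair had 13 of 18 higher and none lower, and 8 and none after rescaling. Homologous recombination had 10 of 17 higher and none lower, and 8 and 2 after rescaling. It shared its highest log2 ratio, 3.87, with nucleotide excision repair and the DNA replication pathway, and this is the value of replication factor A protein 1. The overlap of these pathways with the replication genes was not counted, so they are not separate results.

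Chromatin and cytoskeleton genes were also higher more often than all genes on both scales. Chromatin modifiers had 38 of 66 genes higher and 2 lower, and 23 and 3 after rescaling. Septin, actin and polarity genes, which shape the growing hypha, had 23 of 40 higher and 1 lower, and 14 and 6 after rescaling. The myosin regulatory light chain cdc4 (gene03511) was at 52.7 TPM in the wild type against 463 TPM in the mutant. Vesicle coat and transport genes had 37 of 81 (45.7%) higher, and 23 (28.4%) after rescaling, shares near those of all genes. Their shares lower were smaller, with 1 gene (1.23%) against 14% of all genes, and 6 (7.41%) against 23.6% after rescaling. Coatomer subunit epsilon (gene01788), part of the coat of Golgi vesicles, was at 3.05 TPM in the wild type, 192 TPM in the mutant, and 61.4 and 85.4 TPM at day 18.

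The proteasome degrades proteins marked with ubiquitin, and its share of higher genes, set against all genes, depended on the scale. Its median log2 ratio was above that of all genes on both scales, at 1.07 against 0.64, and at 0.43 against 0.06 after rescaling. Of 38 genes 21 (55.3%) were higher and 3 lower in deposited values, but after rescaling 8 (21.1%) were higher and 3 lower, against 26.7% of all genes higher. The genes had a summed level of 3750 TPM in the wild type against 7450 TPM in the mutant. The assembly factor UMP1 (gene06985) was at 8.14 and 219 TPM. The lower genes included the activator subunit 4 (gene09102), an alternative cap of the proteasome, at 446 TPM in the wild type against 47.7 TPM in the mutant. In the endoplasmic reticulum list 17 of 44 genes were higher and 5 lower, and 9 and 9 after rescaling. GPI mannosyltransferase 2 (gene09176), which builds the anchor of many wall proteins, was at 300 TPM in the wild type against 34.5 TPM in the mutant, with 37.5 and 29.9 TPM at day 18.

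At the cell wall, more glucan genes were lower than higher. Of 29 genes 5 were higher, 10 lower and 14 within 2-fold, and 3 were higher and 11 lower after rescaling. Their summed level was 7115 TPM in the wild type against 2178 TPM in the mutant. FKS1 (gene05336), the beta-1,3-glucan synthase that enfumafungin inhibits, was at 211 TPM in the wild type, 93.3 TPM in the mutant, and 104 and 311 TPM at day 18. Among the glucanosyltransferases that elongate and join the glucan chains, gel3 (gene09719) was at 386 and 62.6 TPM, and gel1 (gene03568), singled out after its values were seen, was at 3360 and 601 TPM. Highest of the wall proteins was a gene with the repeat of yeast PIR proteins and no other name (gene05269). It was at 16625 TPM in the wild type, 1669 TPM in the mutant, and 740 and 562 TPM at day 18. A GPI-anchored surface protein (gene04641) was at 5722 and 990 TPM. Chitin genes had 11 of 25 (44%) higher and 4 lower, but 4 (16%) and 5 after rescaling, against 40.7% and 26.7% of all genes higher.

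Among enzymes acting on plant material, most pectin-degrading genes were lower, and the other lists held genes going both ways. Of 25 compared pectin-degrading genes 4 were higher and 14 lower, and 1 and 17 after rescaling. The polygalacturonase gene08871 was at 8803 and 42.97 TPM. Exopolygalacturonase C (gene03780) was higher, at 6.0 and 32.2 TPM. Enzymes for cellulose, xylan and other wall polymers had 25 of 75 genes higher and 19 lower, and 20 and 25 after rescaling. A xyloglucanase (gene00370) was at 572 TPM in the wild type against 44.3 TPM in the mutant, while a cutinase (gene05570), which cleaves plant surface wax polymer, was at 2.96 TPM in the wild type, 221 TPM in the mutant, and 9.90 and 42.1 TPM at day 18. Starch and sucrose enzymes had 4 of 14 genes higher and 4 lower, and 3 and 6 after rescaling. Glucoamylase (gene09040) was at 221 TPM in the wild type and lower in the mutant, with a log2 ratio of -3.40. Alpha-amylase (gene01278) was higher, at 56.6 and 181 TPM.

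**Figure D5:**
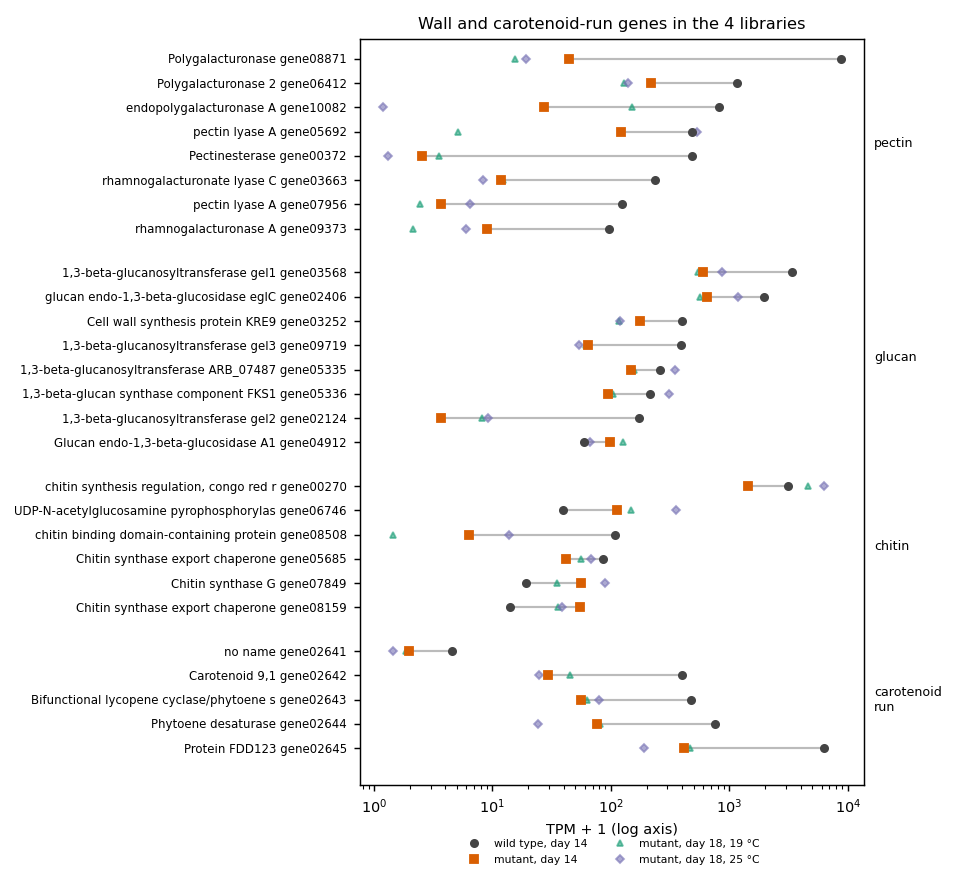
Levels of the highest pectin, glucan and chitin genes of the day 14 libraries and of the 5 genes of the carotenoid run in the 4 libraries, as TPM + 1 on a log axis, with the wild type as circles and the mutant at day 14 as squares. The 5 genes of the run and the polygalacturonase at 8803 TPM lie lower in all 3 mutant libraries than in the wild type, while FKS1 at 25 °C and day 18, at 311 TPM, lies above it.

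Transport genes differed by substrate. Of 53 sugar and polyol transporters 27 were higher and 2 lower, and 23 and 9 after rescaling. Their summed level was 7271 TPM in the wild type against 5092 TPM in the mutant, and the low-affinity glucose transporter HXT1 (gene10408) was at 4897 and 1135 TPM. A myo-inositol transporter (gene08365) was at 0.72 TPM in the wild type against 83.2 TPM in the mutant, with 22.2 and 34.4 TPM at day 18. Amino acid, peptide and allantoate permeases had 13 of 67 genes higher and 17 lower, and 10 and 24 after rescaling. Choline transport proteins included gene09410, at 513 TPM in the wild type, 16.6 TPM in the mutant, and 12.5 and 12.8 TPM at day 18. General amino acid permease GAP2 (gene02315) was higher, at 16.8 and 108 TPM. ABC transporters had 12 of 34 genes higher and 7 lower, but 2 and 11 after rescaling. The plasma membrane proton ATPase (gene03628), which powers uptake, was at 1005 TPM in the wild type against 471 TPM in the mutant, with 899 and 1816 TPM at day 18.

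Redox and stress genes went in both directions. Catalases, superoxide dismutases and peroxidases had 11 of 28 genes (39.3%) higher and 5 lower, and 8 (28.6%) and 9 after rescaling. The shares higher were near those of all genes, while log2 ratios ran from -6.54 to 5.71. A mitochondrial peroxiredoxin (gene00803) was at 1908 TPM in the wild type against 273 TPM in the mutant, and a catalase-peroxidase (gene09821) at 41.6 and 341 TPM. Glutaredoxin (gene09125), which reduces protein disulfides with glutathione, was at 1288 and 271 TPM. Heat shock proteins and chaperonins had 26 of 54 genes higher and 2 lower, and 16 and 7 after rescaling. The 2 lower genes included the 30 kDa heat shock protein (gene01826). It was at 3724 TPM in the wild type, 140 TPM in the mutant, and 2523 and 274 TPM at day 18. In iron uptake 7 of 23 genes were higher and 4 lower, but 2 and 6 after rescaling, and a ferric and cupric reductase (gene07076) was at 478 TPM in the wild type against 45.6 TPM in the mutant.

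Among regulators, the protein kinases had 53 of 100 genes higher and 8 lower, and 33 and 12 after rescaling. A HAL4/SAT4-type kinase (gene07438), in yeast a regulator of potassium uptake, was at 972 TPM in the wild type, 80.7 TPM in the mutant, and 113 and 121 TPM at day 18. The regulatory subunit of cAMP-dependent protein kinase (gene09043) was at 12.6 and 159 TPM. Transcription factors had 79 of 209 genes (37.8%) higher and 12 lower, and 47 (22.5%) and 36 after rescaling. The shares higher were close to those of all genes. The shares lower were smaller, 5.74% against 14%, and 17.2% against 23.6% after rescaling. The velvet complex and LaeA, which in Aspergillus link light and development to secondary metabolism, differed by member. LAE1 (gene06742) was at 79.9 TPM in the wild type against 16.5 TPM in the mutant, with 44.4 and 22.4 TPM at day 18. Velvet subunit B (gene04480) was at 24.1 and 10.1 TPM. The veA-type gene (gene07829) was at 27.5 TPM in the wild type against 98.5 TPM in the mutant, so the 3 members did not move together. The calcium and calcineurin list had 15 of 28 genes (53.6%) higher and 1 lower, but 5 (17.9%) and 1 after rescaling. Calcineurin subunit B (gene04517) was at 133 and 229 TPM and calcipressin (gene06185), its inhibitor, at 147 and 157 TPM, both within 2-fold.

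Markers of other cell forms were taken from the lists for sporulation and surface proteins, melanin synthesis, and mating and heterokaryon genes, since the samples are labelled mycelium. Sporulation and surface proteins had 8 of 12 genes higher and 1 lower, and 5 and 1 after rescaling, and their summed level was 194.5 TPM in the wild type, 1160 TPM in the mutant, and 1202 and 1022 TPM at day 18. Conidiation-specific protein 10 (gene06873), named in Neurospora crassa for its appearance during spore formation, was at 9.91 TPM in the wild type, 688 TPM in the mutant, and 924 and 635 TPM at day 18. The spore regulator vosA (gene01912) was at 11.0 and 8.35 TPM, within 2-fold. Melanin genes had 9 of 20 higher and 3 lower, and 7 and 3 after rescaling, with sums of 567 TPM in the wild type against 2514 TPM in the mutant. Mating and heterokaryon genes had 15 of 39 (38.5%) higher and 7 lower, and 8 (20.5%) and 13 after rescaling. The shares higher did not exceed those of all genes. The part of spore-forming or pigmented cells in the other group results was not tested.

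The run of 5 neighbouring gene numbers from gene02641 to gene02645 was picked because every member was called lower, which held on both scales. The unnamed first member (gene02641) was low in both libraries, at 3.56 and 0.99 TPM. The summed level of the run was 7925 TPM in the wild type, 575 TPM in the mutant, and 648 and 314 TPM at day 18. Its named members belong to carotenoid and retinal metabolism, and in Fusarium such genes form the car cluster. The bifunctional phytoene synthase and lycopene cyclase (gene02643), which makes and closes the carotene skeleton, was at 477 TPM in the wild type against 54.5 TPM in the mutant. Phytoene desaturase (gene02644), which introduces its double bonds, was at 750 and 74.97 TPM. A carotenoid-cleaving dioxygenase (gene02642) was at 396 and 28.6 TPM. The last member, FDD123 (gene02645), carries the domain of bacteriorhodopsin-like proteins, which bind retinal, and was at 6298 TPM in the wild type, 416 TPM in the mutant, and 462 and 189 TPM at day 18. A different opsin, Opsin-1 (gene09552), was at 725 and 2816 TPM. The 2 opsin-type genes with the highest levels thus stood in opposite order in the 2 strains.

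Runs of at least 5 consecutive gene numbers called in 1 direction numbered 62 for higher and 3 for lower, and 15 and 16 after rescaling. The longest, gene04130 to gene04138, holds genes named after the enfumafungin cluster and some unnamed ones. Its sum was 882 TPM in the wild type against 34690 TPM in the mutant. A run holds only genes called in 1 direction, so this sum does not stand for every gene matched to the cluster. Of the 20 compared genes so matched, inside or outside the run, 14 were higher and 3 lower, and 12 and 4 after rescaling. Their list summed to 1034 against 30677 TPM, wild type first. A second lower run, gene07247 to gene07251, holds a nonribosomal peptide synthetase named apvA (gene07248, 19.5 and 0.37 TPM) and an efflux pump, and its sum was 198 TPM in the wild type against 15.7 TPM in the mutant. The table gives gene numbers and no coordinates, so neighbours here are neighbours in number.

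Outside the genes matched to the enfumafungin cluster, secondary metabolism was mixed. The list of terpene cyclases and prenyltransferases had 3 of 12 genes higher and 5 lower, and 1 and 6 after rescaling. Its lower genes include gene02643 and the phytoene desaturase gene02644, both already described in the carotenoid run. They stood at 477 and 750 TPM in the wild type, where the whole list summed to 1431 TPM. Polyketide and peptide synthases had 2 of 13 higher and 3 lower, and 2 and 5 after rescaling. Cytochrome P450 genes had 25 of 47 higher and 6 lower, and 22 and 13 after rescaling. The P450 with the largest gain in level outside the cluster, of the AN1598 type (gene02028), was at 107 TPM in the wild type, 3057 TPM in the mutant, and 660 and 737 TPM at day 18.

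Some orthology numbers, each an enzyme or a wider protein family, held genes that went opposite ways. Of 342 orthology numbers with at least 2 genes at 10 TPM or more, 56 held both a gene at least 2-fold higher and a gene at least 2-fold lower, where 40.7% of all genes were higher and 14% lower. A number with many genes can hold both more easily, and nothing particular is read from this count. With a 4-fold limit, which 18.1% of all genes passed as higher and 4.92% as lower, 17 did. The genes of this paragraph were picked by this opposition after their values were seen. The 5 hexokinase and glucokinase genes were 1 such set. Hexokinase gene01952 was the highest of them in the wild type at 154 TPM and was at 31.6 TPM in the mutant. Glucokinase gene04458 was at 30.8 TPM in the wild type against 235 TPM in the mutant, and hexokinase gene00481 at 11.7 and 204 TPM. A similar exchange was seen between cytoplasmic aspartate aminotransferases, with gene10364 at 138 and 26.4 TPM and gene03527 at 65.7 and 389 TPM. Of the alpha-glucosidases, gene07382 was at 61.8 and 11.0 TPM and gene00397 at 25.6 and 277 TPM.

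Several of the highest genes had no name from a protein match. The highest gene of the mutant (gene08671) carries the domain of the glucose-repressible protein Grg1, known from Neurospora crassa, although its orthology entry reads RAP1B. It was at 2432 TPM in the wild type, 19435 TPM in the mutant, and 14024 and 11362 TPM at day 18. Among unnamed genes, gene10816 was at 23056 and 7774 TPM. A gene with a reverse transcriptase domain (gene02947) was at 9568 TPM in the wild type, 112 TPM in the mutant, and 117 and 1722 TPM at day 18. A methyltransferase-type gene (gene07758) was listed at 0 in the wild type and was at 3116 TPM in the mutant, and at 593 and 334 TPM at day 18. Of 2501 compared genes with no name 841 were higher and 524 lower.

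The annotation columns deposited with the table sort genes in other ways. Of 97 annotated pathways with at least 10 compared genes, the highest medians were those of valine, leucine and isoleucine biosynthesis and of lysine biosynthesis, already described. Next came fructose and mannose metabolism, with 26 of 37 genes higher and 4 lower, and 21 and 6 after rescaling. DNA replication and the biosynthesis of nucleotide sugars followed, the latter with 19 of 26 genes higher and 3 lower, and 14 and 5 after rescaling. Mismatch repair had 21 of 24 genes higher and none lower, and 16 and 1 after rescaling, and its overlap with DNA replication was not counted. The lowest medians were those of ABC transporters, at -0.05, and riboflavin metabolism, at 0.00. By broad category the cytoskeleton stood highest, with 35 of 52 genes higher and 1 lower, and 23 and 4 after rescaling.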

How the data were processed

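RNA of 4 mycelium libraries, 1 per group, was made into libraries with the SMARTER mRNA-Seq kit named in the labels' protocols. The authors deposited 1 table of TPM values with gene annotation, in which each library sums to 1000000. For the aligner and genome build, the sources used here give nothing, and TPM keeps no read depth, so depth and counting error are unknown. All sample columns were matched to samples by library name.

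For genes at 1 TPM or more in either day 14 library, log2((TPM + 1) mutant / (TPM + 1) wild type) was computed, also after rescaling both libraries to a median ratio of 0 over the 8259 genes at 1 TPM or more in both. A 2-fold limit defined higher and lower. The ratio and rescaling were tested on simulated data with a small set of genes changed equally in both directions and an assumed read depth. These libraries have a one-sided shift and an unknown depth, so that check cannot show which scale is right for them. With 1 library per group no test, error or p-value was possible.

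The members and lists were chosen with earlier results of these data known, and list exclusions were adjusted on gene names after the table was seen. Named genes are up to 2 with the largest and 2 with the smallest ratio per list at 10 TPM or more, members of metabolic lists made of orthology numbers, the 15 highest genes per library, the 15 largest named gains and losses, a set of single genes picked by name, and the ends of runs. Others are said to be chosen after their values were seen. Names are best protein matches, and 166 genes share all 4 values with another gene, so near-identical copies may not be resolved. Sequences are not used here. Python 3.11.15, numpy 2.4.6, pandas 2.3.3 and matplotlib 3.10.9 were used.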

Additional observations from a re-analysis of the deposited data

How the results depend on the processing

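No paired analysis was possible because each group holds 1 library. With a 4-fold limit 1677 genes were higher and 456 lower, and 370 of the 767 genes meeting the naming rule or chosen after their values were seen differed, against 606 with the 2-fold limit. Rescaling by the median ratio gave 2480 higher and 2187 lower genes. The count of higher genes was otherwise 2899 to 4003, and that of lower genes 890 to 1506. The median log2 ratio of all genes was 0.71 with a pseudocount of 0.1, 0.44 with a pseudocount of 5, 0.56 with no filter, 0.78 with a filter of 10 TPM, 0.54 after rescaling without the 20 highest genes of either library, and 0.06 after rescaling by the median ratio. Under the median-ratio rescaling 24 of 77 list medians changed sign, with a filter of 10 TPM 4 of 76 did, and after rescaling without the 20 highest genes 3 of 77 did. No list median of at least 1 in size changed sign under any alternative, though only the settings that drop genes could have changed one. A named gene that differed at least 2-fold could not change sign under these settings. The largest shift of scale, 0.65 on the log2 scale, is below 1, so nothing is read from the kept signs. The medians of 32 of 77 lists left the interval of the deposited-scale median, all of them under the median-ratio rescaling, which by construction lowers every ratio. Of 77 lists, 61 stayed on the same side of the all-gene median in all of them, and the other 16 did not. Depth, culture and strain effects cannot be assessed with 1 library per group, and ratios of genes near 1 TPM depend most on the pseudocount.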
